A study of Mus musculus with 2 samples.

Results

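The interleukin-1 (IL-1) system and the inflammasome were followed through 10 genes chosen by symbol from the 32285 genes of both count matrices: the ligands Il1a, Il1b and Il18, the receptor subunits Il1r1 and Il1rap, the decoy receptor Il1r2, the receptor antagonist Il1rn, and the inflammasome genes Nlrp3, Casp1 and Casp4. All 10 were present in the files and each had UMIs (unique molecular identifiers, 1 per captured RNA molecule) in both libraries. One library held CD45-positive cells of MOC2 tumours from mice given Momordicine-I, a bitter melon triterpenoid, at 30 mg/kg by daily intraperitoneal injection. The other held the same kind of cells from mice given the DMSO and Captisol vehicle. MOC2 is a mouse oral carcinoma line, grown here under the skin of the flank of female C57BL/6 mice of 6 to 7 weeks, with 10 mice per arm. Each library came from the combined tumours of 3 mice of its arm, so each group was 1 library, no value below has a replicate, and no test between groups was possible. A subcutaneous graft of 1 cell line stands in for an oral tumour, and the pool hides differences between mice.

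IL-1 alpha and IL-1 beta act through the receptor encoded by Il1r1, which needs the accessory chain encoded by Il1rap to signal to NF-kappaB through MyD88. The product of Il1r2 binds IL-1 but has no signalling domain, and the product of Il1rn occupies Il1r1 without activating it, so both hold IL-1 signalling down. IL-1 beta and IL-18 are made as precursors that caspase-1 cleaves after a sensor such as NLRP3 has assembled an inflammasome. Caspase-11, the mouse protein encoded by Casp4, is activated by cytosolic lipopolysaccharide and opens the gasdermin D pore. Transcript levels therefore show the supply of precursor and machinery, not of secreted cytokine.

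The genes lie in a few clusters in the GRCm38 genome, and all 10 are annotated as protein coding. Il1a (chr2:129299610-129309972) and Il1b (chr2:129364570-129371139) are on the minus strand of chromosome 2, 54.6 kb apart. The decoy gene Il1r2 (chr1:40074079-40125231) lies 99.8 kb upstream of the receptor gene Il1r1 (chr1:40225080-40317257), both on the plus strand. Casp1 (chr9:5298517-5307265) and Casp4 (chr9:5308828-5336783) are 1562 bases apart on the plus strand. The others are also on plus strands, Il1rn at chr2:24336853-24351494, Il1rap at chr16:26581704-26730117, Nlrp3 at chr11:59541568-59566956 and Il18 at chr9:50554827-50581840.

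RefSeq promoter entries for GRCm38.p6, each with 250 bases before and 50 after a transcript start, were found for all 10 genes (15 entries). They are shown for the ligand pair, which shared its main source but differed in level, for the receptor and decoy pair, which differed in where it was expressed, and for Casp4, which alone of the first entries held a pair of NF-kappaB matches. Capitals mark matches, on either strand, to a TATA box (TATAAA), a PU.1 core (GAGGAAG), a C/EBP core (TTGCNNAA) or an NF-kappaB site (GGG, any 2 bases, then TTTCC). The core of the interferon-stimulated response element (GAAA, any 2 bases, then GAAA) was searched for too, and no motif overlaps another in these windows. The sequences run 5′ to 3′ on the strand of the gene.
Il1a, chr2:129309923-129310222, minus strand: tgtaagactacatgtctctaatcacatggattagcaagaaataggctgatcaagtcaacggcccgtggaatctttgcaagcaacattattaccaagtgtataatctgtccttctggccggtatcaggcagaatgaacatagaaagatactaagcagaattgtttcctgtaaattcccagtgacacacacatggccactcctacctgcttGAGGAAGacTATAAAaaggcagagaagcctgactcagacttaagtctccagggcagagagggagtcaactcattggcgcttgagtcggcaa
Il1b, chr2:129371090-129371389, minus strand: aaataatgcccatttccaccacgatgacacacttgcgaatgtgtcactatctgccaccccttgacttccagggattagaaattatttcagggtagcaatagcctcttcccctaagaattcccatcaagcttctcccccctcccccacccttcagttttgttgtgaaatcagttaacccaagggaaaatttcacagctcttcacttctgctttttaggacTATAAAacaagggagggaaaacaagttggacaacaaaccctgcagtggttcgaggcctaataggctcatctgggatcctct
Il1r1, chr1:40224830-40225129, plus strand: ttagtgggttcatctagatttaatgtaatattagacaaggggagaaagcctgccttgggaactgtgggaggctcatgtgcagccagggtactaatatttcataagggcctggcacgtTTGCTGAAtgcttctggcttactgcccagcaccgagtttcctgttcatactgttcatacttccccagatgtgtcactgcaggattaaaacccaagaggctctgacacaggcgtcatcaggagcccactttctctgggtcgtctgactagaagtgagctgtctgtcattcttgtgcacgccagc
Il1r2, chr1:40085843-40086142, plus strand: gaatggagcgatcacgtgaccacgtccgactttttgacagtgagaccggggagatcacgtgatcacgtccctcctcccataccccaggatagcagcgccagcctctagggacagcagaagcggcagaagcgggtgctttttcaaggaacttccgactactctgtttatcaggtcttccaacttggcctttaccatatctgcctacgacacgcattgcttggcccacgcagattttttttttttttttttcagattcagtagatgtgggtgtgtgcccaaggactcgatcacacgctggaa
Casp4, chr9:5308599-5308898, plus strand: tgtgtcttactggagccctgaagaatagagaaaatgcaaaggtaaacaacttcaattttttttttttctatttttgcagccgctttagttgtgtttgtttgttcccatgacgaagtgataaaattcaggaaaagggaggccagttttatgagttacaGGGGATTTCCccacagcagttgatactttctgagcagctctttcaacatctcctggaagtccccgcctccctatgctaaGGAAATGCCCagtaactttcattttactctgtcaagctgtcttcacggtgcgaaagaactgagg

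Il1a and Il1b each held a TATA box, first base at -32 and -31 with the start as 1, and Il1a also held a PU.1 core at -41. Of all 32851 mouse promoter entries of this length, 13.6% held the TATA letters and 13.6% the PU.1 core. The Il1r1 entry shown held a C/EBP core at -133, letters found in 10.8% of entries, and a second Il1r1 entry, at chr1:40266336-40266635, held none of the letters searched. Casp4 held an NF-kappaB match at -93 and another on the minus strand at -14, letters found in 1.63% of entries, and the other Casp4 entry, which overlaps this one, held the same pair. Il1r2 and Casp1 held none of the letters searched. A match is a description of the letters in the window and says nothing of binding there.

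After removal of barcodes with under 200 genes or over 10% mitochondrial UMIs, 4370 Momordicine-I and 3364 vehicle cells remained, with medians of 5002 and 5760 UMIs. Scrublet called 1 and 2 of these cells as doublets, which is too few for the caller to have worked, so none were removed. Cells were sorted into types by markers that exclude the 10 genes, and a cell that passed several gates went to a type only if that type's share of the UMIs, over its limit, was at least 3 times the next. The gates held 2536 and 1799 neutrophils, 248 and 133 monocytes or macrophages, 131 and 80 dendritic cells, 389 and 401 T cells, 89 and 216 B cells and 228 and 90 carcinoma cells in the Momordicine-I and vehicle libraries. Another 297 and 248 cells passed more than 1 gate and 377 and 321 passed none. CD45 itself (Ptprc) was detected in 92.7% and 93.4% of neutrophils and in 17.1% and 27.8% of the carcinoma-gated cells, which the sort should have removed. The libraries shared 7 of the kept barcodes. Levels are CPM, counts per 1000000 of the UMIs summed over a cell type in a library, and every interval is an exact 95% interval that covers counting error only and treats the UMIs of 1 cell as independent.

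**Figure D1:**
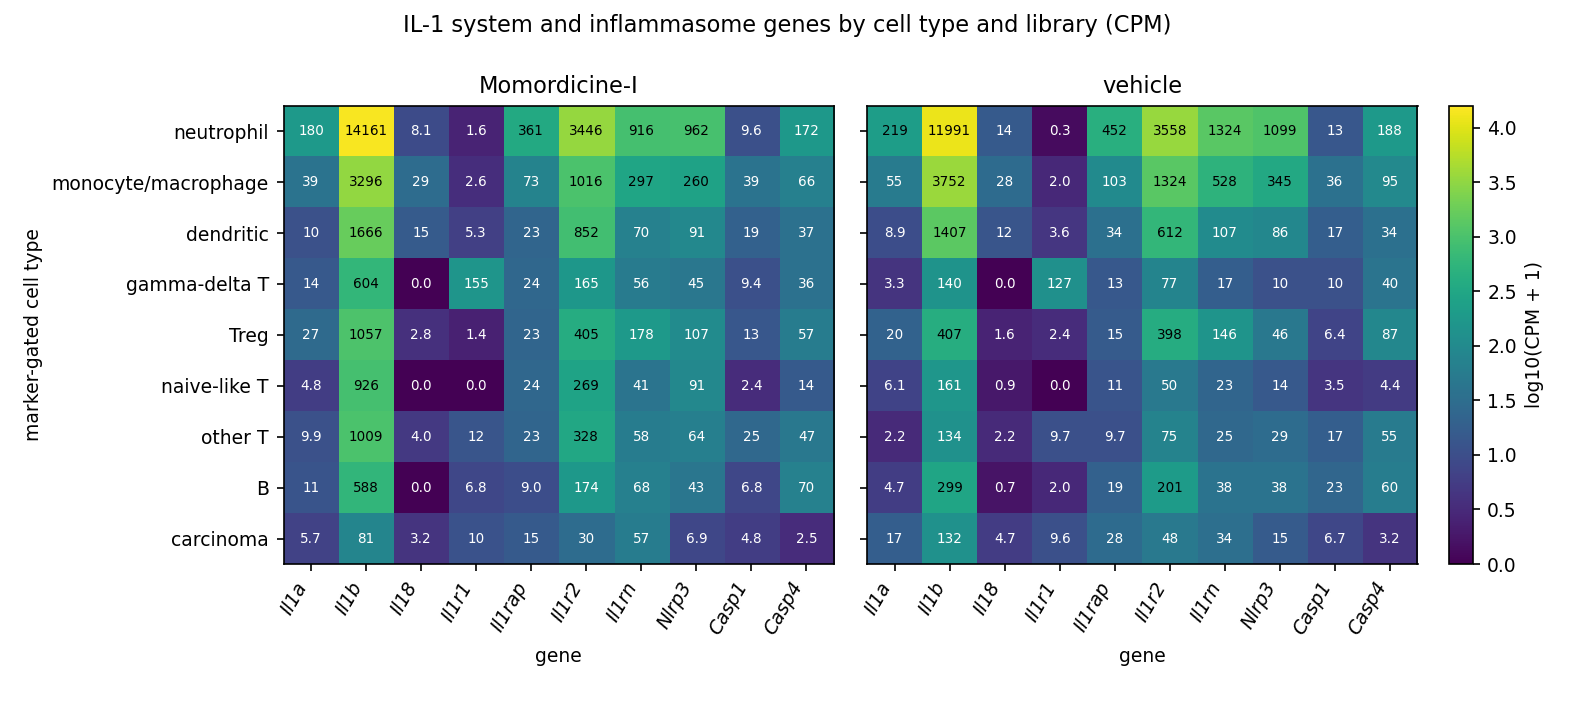
Level of the 10 genes (columns) in 9 marker-gated cell types (rows) in the Momordicine-I library and the vehicle library, each cell of the map showing the CPM and coloured by log10(CPM + 1). Il1b reached 14161 and 11991 CPM in neutrophils, whereas Il1r1 was highest in gamma-delta T cells, at 155 and 127 CPM.

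Il1b was the most abundant of the 10 genes and came mainly from neutrophils. It stood at 14161 CPM in Momordicine-I neutrophils and 11991 CPM in vehicle neutrophils, a ratio of 1.18 (1.17 to 1.19). It was detected in 98.6% of Momordicine-I and 98.1% of vehicle neutrophils, with a median of 61 and 55 UMIs per cell. Neutrophils held 79.9% and 78.2% of all Il1b UMIs.

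Among the other main cell types Il1b was next highest in phagocytes, basophils and dendritic cells. Monocytes and macrophages had 3296 CPM in the Momordicine-I library and 3752 CPM in the vehicle library, and dendritic cells had 1666 and 1407 CPM. Among lymphocytes and carcinoma cells the level was at most 1057 CPM in the gated types with at least 50 cells in both libraries, Momordicine-I regulatory T cells being the highest. B cells, which should lack neutrophil transcripts, still showed an Il1b UMI in 49.4% of Momordicine-I and 54.2% of vehicle cells, at median depths of 4699 and 6058 UMIs. Il1b was also set against the neutrophil transcript S100a9 in the same cells. Per 100 S100a9 UMIs there were 37.2 and 29.8 Il1b UMIs in neutrophils, 34.4 and 26.0 in B cells and 37.2 and 36.5 in gamma-delta T cells. Dendritic cells had 307 and 95.6, and monocytes and macrophages 96.1 and 70.4. Regulatory T cells also had more Il1b for their S100a9 than neutrophils did. Their Il1b was at 1057 and 407 CPM and their S100a9 at 986 and 703 CPM, and 1 cell held 30.5% and 22.4% of their Il1b UMIs. Basophils had 203 and 220 Il1b UMIs per 100 S100a9 UMIs, at 2463 and 3541 CPM, but 1 cell held 63.1% of the UMIs of the 27 Momordicine-I basophils. The part of neutrophil RNA in the Il1b of any of these types was not tested.

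Il1b in T cells differed far more between the libraries than in any myeloid type, and so did the neutrophil transcript S100a9. T cells had 874 CPM in the Momordicine-I library and 237 CPM in the vehicle library, a ratio of 3.68 (3.41 to 3.98). S100a9 in the same cells was at 1949 and 490 CPM, a ratio of 3.98, and Il1b per 100 S100a9 UMIs was 44.8 and 48.4. Csf3r, another neutrophil transcript, differed less than Il1b, at 107 and 55.3 CPM (ratio 1.94, 1.62 to 2.32). A single cell held 18.6% of the Momordicine-I and 13.3% of the vehicle Il1b UMIs of T cells. With cells thinned to 2000 UMIs each, the levels were 556 and 217 CPM. Of the 9 genes measured in T cells, 6 (Il1b, Il1r1, Il1r2, Il1rap, Nlrp3 and Casp1) were at least 1.5-fold higher in the Momordicine-I library and none lower, against 9.9% higher and 8.48% lower among all 10409 genes. Where cells were assigned by cluster, the T cell ratio of Il1b was 1.18, and with gates at 2 times their limit it was 1.30. The Il1r2 ratio of 1.58 in T cells turned to 0.877 with clusters. B cells repeated this on a smaller scale, with Il1b at 588 CPM in the Momordicine-I library and 299 CPM in the vehicle library and S100a9 at 1708 and 1149 CPM, and 1 cell held 37.2% and 33.6% of the B cell Il1b UMIs. The B cell ratio of 1.97 became 0.677 with gates at 2 times their limit and 0.738 with clusters. The part of neutrophil RNA, free or from doublets, in these lymphocyte values was not tested.

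Il1a, the neighbour of Il1b on chromosome 2, was found in the same cells at a far lower level. Levels of different genes are compared by their 3′ UMIs, of which a captured transcript gives 1 whatever its length. Capture is partial and can differ between genes, so such comparisons are of UMIs and not of transcript numbers. Momordicine-I neutrophils had 180 CPM and vehicle neutrophils 219 CPM (ratio 0.821, 0.779 to 0.865), with 78.7 and 54.7 Il1b UMIs for each Il1a UMI. It was found in 27.4% of Momordicine-I and 32.2% of vehicle neutrophils. Phagocytes of the monocyte and macrophage gate had 39.2 and 55.3 CPM (ratio 0.708, 0.558 to 0.900, but 1.06 with clusters) and dendritic cells 10.2 and 8.94 CPM.

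Il18 differed from Il1a and Il1b in the main cell type with the highest level. Among the main types with at least 50 cells in both libraries, subsets left aside, this was monocytes and macrophages. They had 29.2 CPM in the Momordicine-I library and 28.3 CPM in the vehicle library (ratio 1.03, 0.760 to 1.42). Dendritic cells had 14.8 and 11.6 CPM. Neutrophils had 8.08 and 14.2 CPM, a ratio of 0.567 (0.450 to 0.714) on 130 and 183 UMIs. Because neutrophils were so numerous, they still held 35.0% of the Momordicine-I and 51.0% of the vehicle Il18 UMIs, the largest share of any main type. Monocytes and macrophages held 30.2% and 19.2%. No Il18 UMI was found in gamma-delta T cells, where 3 counts would be 2.82 CPM in the Momordicine-I library and 10.0 CPM in the vehicle library.

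The receptor side was divided between cell types. The signalling receptor Il1r1 was close to absent from the cells that made Il1b. Neutrophils had 26 Il1r1 UMIs in 24 Momordicine-I cells and 4 UMIs in 4 vehicle cells, or 1.62 and 0.311 CPM, and this ratio of 5.19 (1.80 to 20.5) rests on those few UMIs. There were 10 and 5 UMIs in monocytes and macrophages and 15 and 8 in dendritic cells. T cells held 55.5% of all Il1r1 UMIs in the Momordicine-I library and 41.0% in the vehicle library, and carcinoma-gated cells 17.1% and 27.0%.

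Within T cells Il1r1 was a gene of the gamma-delta T cells, gated on Trdc, Il17a, Sox13 and related markers of IL-17 type cells. Momordicine-I gamma-delta T cells had 155 CPM (133 to 181), with the transcript detected in 53.4% of 163 cells. Vehicle gamma-delta T cells had 127 CPM (89.9 to 174), with the transcript in 42.2% of 45 cells. At 2000 UMIs per cell the shares were 25.3% and 15.9%. The ratio of 1.22 (0.854 to 1.79) had an interval that includes 1. Regulatory T cells had 1 Il1r1 UMI in the Momordicine-I library and 3 in the vehicle library, and naive-like T cells had none in 56 and 152 cells, where 3 cells, the limit taken for a count of 0, would be a share of 5.36% and 1.97% of cells with a UMI.

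Over all T cells Il1r1 was nonetheless 4.04-fold higher (2.94 to 5.65) in the Momordicine-I library, at 55.8 CPM against 13.8 CPM in the vehicle library. Gamma-delta T cells were 163 of 389 T cells in the Momordicine-I library and 45 of 401 in the vehicle library, and they held 92.7% and 76.0% of the T cell Il1r1 UMIs. The cause of the different cell numbers was not tested. Il18r1, the receptor chain for IL-18, was also higher in T cells, at 277 CPM in the Momordicine-I library and 151 CPM in the vehicle library (ratio 1.83, 1.64 to 2.04). Il1rl1, the IL-33 receptor of regulatory T cells and group 2 lymphoid cells, was lower, at 149 and 271 CPM (ratio 0.549, 0.491 to 0.613).

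The decoy receptor Il1r2 was the opposite of Il1r1. It was the second most abundant of the 10 genes in neutrophils, at 3446 CPM in the Momordicine-I library and 3558 CPM in the vehicle library (ratio 0.968, 0.956 to 0.980). Monocytes and macrophages had 1016 and 1324 CPM (ratio 0.767, 0.732 to 0.804), and dendritic cells 852 and 612 CPM (ratio 1.39, 1.30 to 1.49). In dendritic cells S100a9 was at 543 CPM in the Momordicine-I library and 1471 CPM in the vehicle library. The part of neutrophil RNA in their Il1r2 was not tested. Regulatory T cells, which are known to express this decoy in human tumours, had 405 and 398 CPM, a ratio of 1.02 (0.877 to 1.18). Per 100 UMIs of the neutrophil receptor Csf3r, regulatory T cells had 467 and 492 Il1r2 UMIs, dendritic cells 2164 and 782, and neutrophils 191 and 198.

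Set against each other, the receptor and its decoy separated the cell types by orders of magnitude. Il1r1 made up 48.5% (43.1 to 54.0) of the Il1r1 and Il1r2 UMIs in Momordicine-I gamma-delta T cells and 62.3% (49.0 to 74.4) in vehicle gamma-delta T cells. In carcinoma-gated cells it made up 25.8% and 16.6%. In dendritic cells it made up 0.615% and 0.581%, and in neutrophils 0.0469% and 0.00874%. The decoy UMIs of gamma-delta T cells, 175 and 23 in number, stood at 134 and 288 per 100 Csf3r UMIs, beside 191 and 198 in neutrophils. The vehicle value of gamma-delta T cells rests on few UMIs and has no interval here. The part of neutrophil RNA in their decoy count was not tested.

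The accessory chain gene Il1rap followed the neutrophils. It stood at 361 CPM in Momordicine-I and 452 CPM in vehicle neutrophils (ratio 0.797, 0.768 to 0.827), and these cells held 80.5% and 78.9% of its UMIs. The monocyte and macrophage gate had 73.4 and 103 CPM and dendritic cells 22.5 and 34.0 CPM (ratio 0.662, 0.467 to 0.936). Gamma-delta T cells, the main holders of Il1r1, had 26 Il1rap UMIs in the Momordicine-I library and 4 in the vehicle library, 24.5 and 13.4 CPM.

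The antagonist Il1rn was lower in the Momordicine-I library in neutrophils, in monocytes and macrophages and, except under 2 alternatives, in dendritic cells. Neutrophils had 916 CPM (901 to 930) in the Momordicine-I library and 1324 CPM (1304 to 1344) in the vehicle library, a ratio of 0.691 (0.676 to 0.707). Monocytes and macrophages had 297 CPM (280 to 314) and 528 CPM (500 to 558), a ratio of 0.562 (0.518 to 0.609). Dendritic cells had 69.6 and 107 CPM, a ratio of 0.651 (0.537 to 0.790), but this one turned to 1.67 when cells were thinned to 2000 UMIs and to 1.13 with gates at 0.5 of their limit, and 1 vehicle cell held 24.3% of its UMIs. In neutrophils the antagonist was detected in 75.4% of Momordicine-I and 83.2% of vehicle cells, and in 61.2% and 71.1% at 2000 UMIs per cell. Beside the lower Il1rn of monocytes and macrophages, their neutrophil transcripts were lower too. S100a9 was at 3429 and 5328 CPM (ratio 0.643) and Csf3r at 265 and 354 CPM (ratio 0.747). The Il1rn level per 100 Csf3r UMIs was 112 and 149 in these cells, and 50.7 and 73.5 in neutrophils. The part of neutrophil RNA in the phagocyte difference was not tested.

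**Figure D2:**
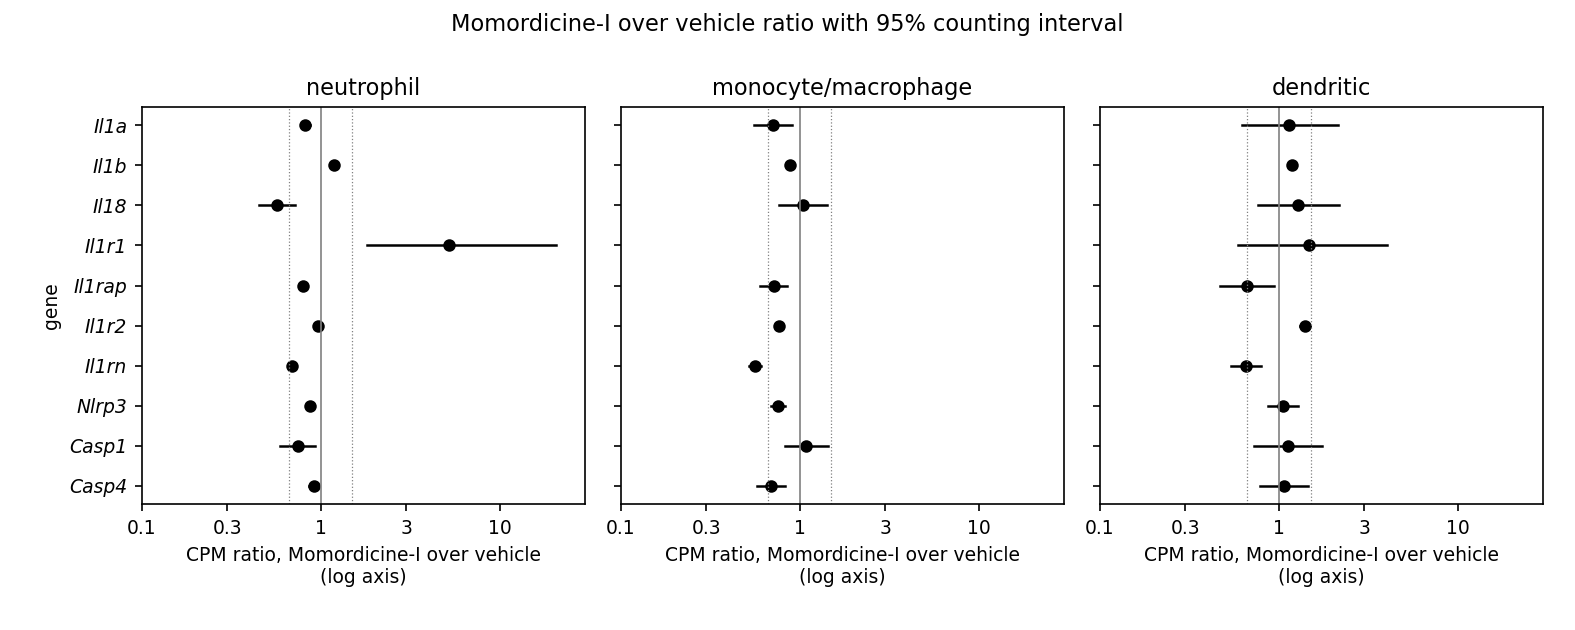
Ratio of the Momordicine-I to the vehicle CPM for the 10 genes (Il1r1 is left out of the monocyte/macrophage panel, where it had under 20 UMIs) in neutrophils, monocytes or macrophages and dendritic cells, on a log axis. Points are ratios, bars their 95% counting intervals, the solid line a ratio of 1 and the dotted lines 1.5-fold either way. Il1rn lay below 1 in each panel, at 0.691, 0.562 and 0.651, and Il1b at 1.18, 0.878 and 1.18.

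The ligand and its antagonist stood in a different proportion in the 2 libraries. Il1rn made up 6.07% (5.98 to 6.17) of the Il1rn and Il1b UMIs of Momordicine-I neutrophils and 9.94% (9.80 to 10.1) of those of vehicle neutrophils, or 15.5 and 9.06 Il1b UMIs for each Il1rn UMI. In monocytes and macrophages it made up 8.26% (7.80 to 8.73) and 12.3% (11.7 to 12.98). In dendritic cells it made up 4.01% (3.48 to 4.60) and 7.06% (6.22 to 7.98), which became 3.92% and 3.27% in thinned cells. This share needs no depth scaling, since both genes are counted in the same cells. Among the neutrophil subsets it was lower in the Momordicine-I library in Cxcl3-high cells (7.89% and 12.3%), hypoxic cells (9.54% and 13.6%), interferon-high cells (6.61% and 10.9%) and mature-type cells (4.76% and 6.73%). Siglecf-positive neutrophils were an exception, at 7.79% (7.50 to 8.10) and 7.76% (7.38 to 8.14), and so were Arg1-positive phagocytes, at 9.54% (8.81 to 10.3) and 9.02% (8.18 to 9.91). In carcinoma-gated cells the order was the other way, 41.3% in the Momordicine-I library and 20.4% in the vehicle library, on 300 and 116 Il1rn UMIs. There 1 cell held 18.3% and 29.3% of the Il1rn UMIs, and 1 cell held 19.0% and 33.3% of the Il1b UMIs. S100a9 in these cells was at 172 and 722 CPM, and the part of neutrophil RNA in their share was not tested.

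**Figure D3:**
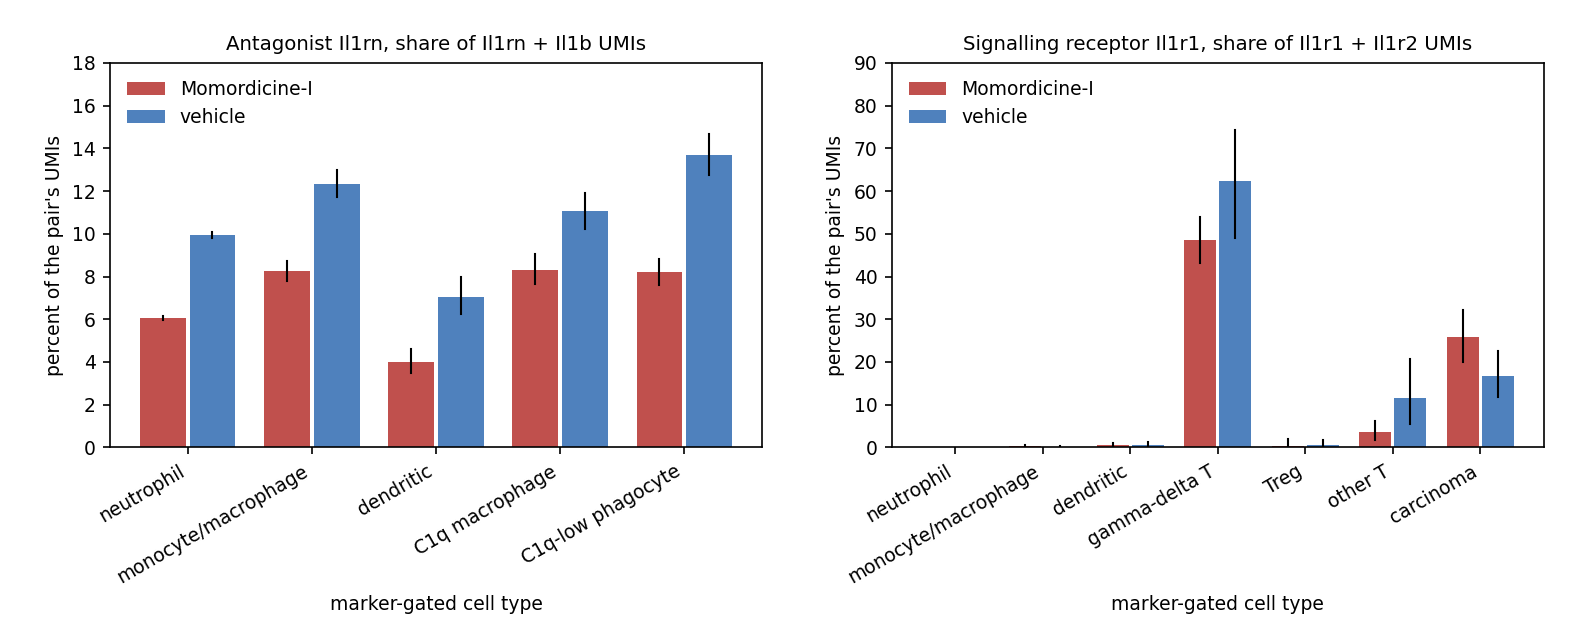
Left, Il1rn as a percent of the Il1rn and Il1b UMIs, and right, Il1r1 as a percent of the Il1r1 and Il1r2 UMIs, by marker-gated cell type, in the Momordicine-I (red) and vehicle (blue) libraries. Bars are shares and lines exact 95% counting intervals. The Il1rn share of neutrophils was 6.07% and 9.94%, and the Il1r1 share of gamma-delta T cells 48.5% and 62.3% against under 1% in neutrophils.

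The inflammasome genes were led by Nlrp3, the sensor, which was abundant where Il1b was. Neutrophils had 962 CPM in the Momordicine-I library and 1099 CPM in the vehicle library (ratio 0.875, 0.855 to 0.895), with the transcript in 79.7% and 84.9% of cells. Monocytes and macrophages had 260 and 345 CPM (ratio 0.753, 0.686 to 0.827) and dendritic cells 90.7 and 86.3 CPM (ratio 1.05, 0.869 to 1.27). Casp4 had 172 and 188 CPM in neutrophils (ratio 0.911, 0.862 to 0.962), and 65.5 and 95.0 CPM in monocytes and macrophages (ratio 0.690, 0.575 to 0.828).

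Casp1, which encodes the protease that matures both cytokines, had few UMIs in neutrophils compared with Nlrp3. It had 9.63 CPM in Momordicine-I and 12.99 CPM in vehicle neutrophils (ratio 0.741, 0.592 to 0.928), in 5.28% and 7.28% of cells. Monocytes and macrophages had 39.2 and 36.0 CPM (ratio 1.09, 0.830 to 1.43) and dendritic cells 19.0 and 17.0 CPM. Among main types with at least 50 cells in both libraries, Casp1 was thus highest in monocytes and macrophages and Il1b in neutrophils. Subsets were left aside here, and interferon-high neutrophils had 20.9 and 38.5 CPM of Casp1. Neutrophils nonetheless held 26.5% of the Momordicine-I and 32.4% of the vehicle Casp1 UMIs, the largest share of any main type. Monocytes and macrophages held 25.7% and 17.1%.

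Few of the 10 genes passed a 1.5-fold difference in the myeloid cells, where a gene counts as measured with at least 20 UMIs over both libraries. In neutrophils 1 of 10 was higher (Il1r1) and 1 lower (Il18), beside 13.3% higher and 4.42% lower of all 11324 genes measured. Their median log2 ratio was -0.24, against 0.16 for all genes, and relative to that shift Il1b had a ratio of 1.06 and Il1rn 0.618. In monocytes and macrophages 0 of 9 were higher and 1 lower (Il1rn), beside 6.82% and 9.01% of 9599 genes, with medians of -0.41 and -0.02. In dendritic cells 0 of 10 were higher and 2 lower (Il1rn and Il1rap), beside 8.47% and 7.37% of 9478 genes, with medians of 0.17 and 0.04. With so few genes, these counts are no result about the set. In carcinoma-gated cells 1 of 10 was higher and 5 were lower, beside 5.81% and 14.9% of 10806 genes, and S100a9 there was at 172 CPM in the Momordicine-I library and 722 CPM in the vehicle library.

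Among monocytes and macrophages the difference in Il1rn was larger in 1 of the subsets. Cells low in complement C1q transcripts had 246 CPM in the Momordicine-I library and 524 CPM in the vehicle library (ratio 0.469, 0.421 to 0.523), in 172 and 73 cells. C1q macrophages, the tissue type, had 408 and 533 CPM (ratio 0.765, 0.678 to 0.864), in 76 and 60 cells. Of 9 genes measured in the C1q-low cells, 3 were lower, Il1rn with Il1a (27.4 and 50.4 CPM) and Casp4 (62.8 and 102 CPM), and none higher, beside 9.56% lower and 11.1% higher of 8451 genes. In C1q macrophages 0 of 9 were lower or higher, beside 9.98% and 9.49% of 7903 genes. S100a9 was at 2403 and 4029 CPM in the C1q-low cells and at 5672 and 6884 CPM in C1q macrophages. Il18 was lower in C1q macrophages than in C1q-low cells of the same library, with 16.6 against 35.0 CPM in the Momordicine-I library and 13.5 against 40.6 CPM in the vehicle library. Of all genes, 8.33% and 12.3% were at least 1.5-fold lower in C1q macrophages than in C1q-low cells. Il1b ran the other way, with 4493 against 2748 CPM and 4289 against 3303 CPM. S100a9 was likewise higher in C1q macrophages in both libraries, and the part of neutrophil RNA in this Il1b difference was not tested.

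Neutrophil subsets differed in which of the genes they carried, and the values given below lay on the same side of the remaining neutrophils in both libraries. Neutrophils high in Cxcl3, Ccl3 and Ccl4 had 2.25 times (2.09 to 2.43) the Il1a of the remaining neutrophils in the Momordicine-I library and 2.85 times (2.64 to 3.09) in the vehicle library, at 295 against 131 CPM and 352 against 123 CPM. Their Il1rn was 1.74 and 1.83 times that of the rest, and their Nlrp3 1.55 and 1.55 times. Only 3.49% and 3.55% of all genes were at least 1.5-fold higher in these cells in the Momordicine-I and vehicle libraries. Il1b itself was 1.11 and 1.12 times the rest.

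Interferon-high neutrophils, gated on Ifit1, Ifit3, Rsad2, Isg15 and Oasl1, carried more of the caspase genes and Il18. Their Il18 was 3.79 times (2.31 to 5.99) that of the rest in the Momordicine-I library and 3.11 times (2.21 to 4.32) in the vehicle library, at 26.6 against 7.02 CPM and 35.8 against 11.5 CPM. Casp1 was 2.32 times (1.33 to 3.80) and 3.95 times (2.82 to 5.50) the rest, and Casp4 1.62 and 1.91 times. Of all genes, 8.43% and 7.28% were at least 1.5-fold higher in these cells. The Momordicine-I library held 139 such cells among 2536 neutrophils and the vehicle library 198 among 1799. The part of these cell numbers in the Il18 difference between the neutrophils of the 2 libraries was not tested.

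Hypoxic neutrophils, gated on Bnip3, Egln3, Adm and other hypoxia genes, had less Il1b and more Il1rn than the rest. Il1b was 0.790 and 0.805 times the rest in the Momordicine-I and vehicle libraries, and Il1rn 1.46 and 1.27 times, where 5.43% and 6.13% of all genes were at least 1.5-fold higher. Mature-type neutrophils, gated on Retnlg, Ly6g and Mmp8, were low in Il1a (0.650 and 0.518 times the rest), Il1rn (0.636 and 0.457 times) and Il1b (0.842 and 0.724 times). In these cells 41.3% and 38.5% of all genes were at least 1.5-fold lower, so values on the low side were common there. The subset gates are ranges and not types: within 2-fold of their limits lay 380 of 629 and 349 of 637 Cxcl3-high cells, and 62 of 139 and 95 of 198 interferon-high cells.

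**Figure D4:**
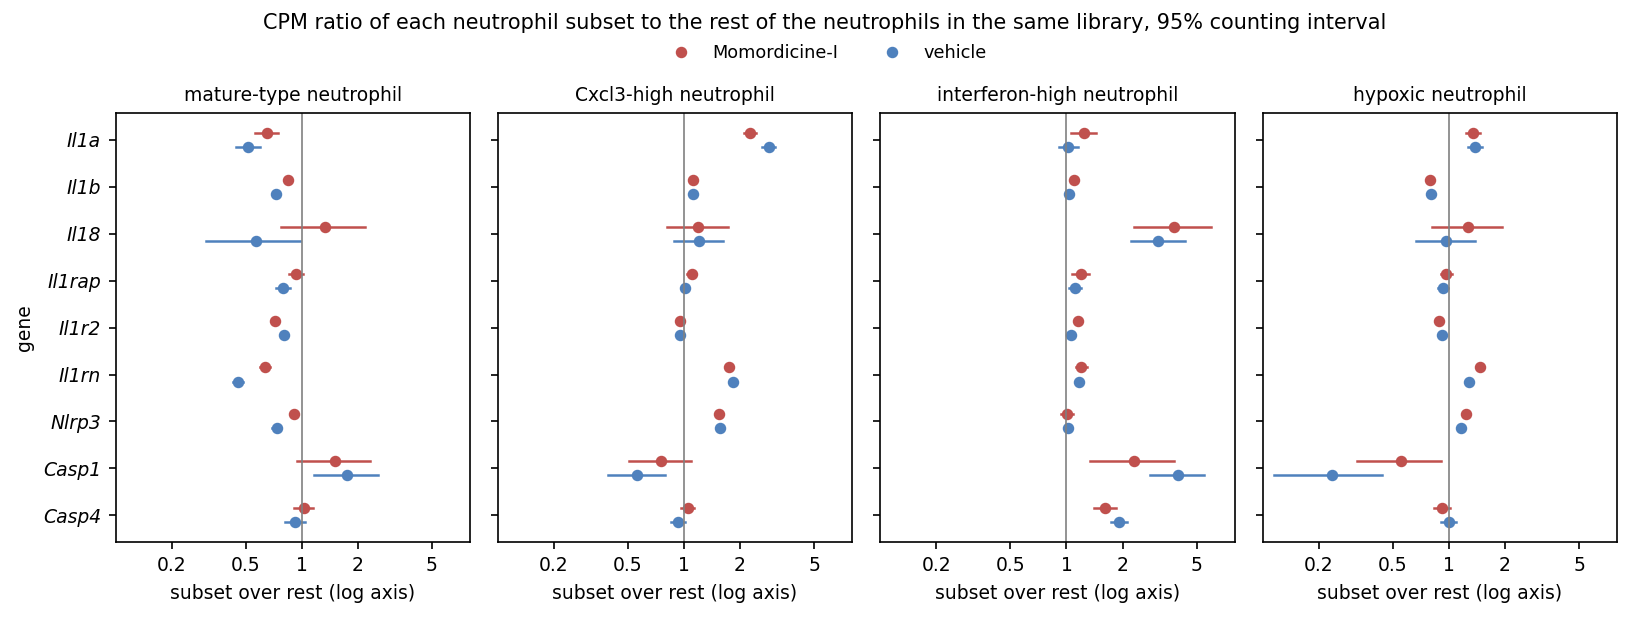
CPM of 9 of the genes in 4 neutrophil subsets divided by that in the remaining neutrophils of the same library, on a log axis, for the Momordicine-I (red) and vehicle (blue) libraries. Points are ratios and bars 95% counting intervals, and Il1r1 is left out for its few UMIs. Il1a, Il1rn and Nlrp3 lay above 1 in Cxcl3-high cells, and Casp1, Casp4 and Il18 in interferon-high cells, in both libraries.

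Within neutrophils thinned to 2000 UMIs, the cells of each library were ranked by their Il1b UMIs and divided into low, middle and high groups, whose limits were 17 and 34 UMIs in the Momordicine-I library and 13 and 29 UMIs in the vehicle library. Nlrp3 was higher at higher Il1b rank, at 737, 985 and 1136 CPM in the Momordicine-I library and 890, 1143 and 1244 CPM in the vehicle library. Il1r2 did the same, at 2933, 3523 and 4155 CPM and at 3084, 3803 and 4174 CPM. Il1rn did not, at 947, 818 and 866 CPM in the Momordicine-I library and 1502, 1279 and 1238 CPM in the vehicle library. The Momordicine-I value of Il1rn was below the vehicle value in each of these groups, which are ranks within a library and not matched Il1b levels.

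Over the summed levels of 9 cell types in 2 libraries (18 sums, which share libraries and depth), the pattern of each of the 10 genes was compared by Pearson r on log2(CPM + 1), first with the other 9 and then with 5515 further genes, the marker genes being left out. Within the 10, Il1b was closest to Nlrp3 (0.978) and Il1r2 (0.973), and Il1a to Il1rn (0.944). Among the further genes Il1b was closest to Ccr1, a chemokine receptor gene of myeloid cells (0.972), Mcemp1 and Tlr13. Il1r2 and Nlrp3 were also closest to Ccr1 among these, at 0.979 and 0.978. Il1r1 was closest to Il17f, a cytokine gene of IL-17 type cells, at 0.845. Il1rn was closest to Trib1 (0.972) among the further genes, and Il1a to Mirt2 (0.937), Ptgs2 (0.931) and Trib1 (0.928). Il18 was closest to Uck2 (0.946) and Casp1 to Ggta1 (0.820).

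Other genes of the pathway were taken from lists that do not include the 10. The only other IL-1 family ligand with enough UMIs was Il1f9, which encodes IL-36 gamma. It was lower with Momordicine-I in neutrophils, phagocytes and dendritic cells, at 484 and 705 CPM in neutrophils (ratio 0.687, 0.666 to 0.708), 68.4 and 136 CPM in monocytes and macrophages (ratio 0.501, 0.425 to 0.591) and 6.68 and 41.6 CPM in dendritic cells (ratio 0.161, 0.0926 to 0.265). In T cells it was higher, at 34.5 and 21.3 CPM (ratio 1.62, 1.201 to 2.20). S100a9 lay on the same side as Il1f9 in each of these types, with ratios of 0.947 in neutrophils, 0.643 in monocytes and macrophages, 0.369 in dendritic cells and 3.98 in T cells, and the part of neutrophil RNA outside neutrophils was not tested.

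The counts of the further lists are to be read beside the shares of all genes, 13.3% higher and 4.42% lower in neutrophils (median log2 ratio 0.16), 6.82% and 9.01% in monocytes and macrophages (median -0.02) and 8.47% and 7.37% in dendritic cells (median 0.04). None of 6 measured receptors and binding proteins passed 1.5-fold in neutrophils (median log2 ratio -0.09), and 2 of 6 were lower in monocytes and macrophages (median -0.05). Those were Il1rl1, at 7.57 and 27.4 CPM, and Il18bp, the soluble IL-18 inhibitor, at 7.31 and 21.3 CPM, and 0 were lower in thinned cells.

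Of 16 signalling genes downstream of the receptor, none passed 1.5-fold in neutrophils (median 0.09, against 0.16 for all genes), and 1 of 16 was lower in monocytes and macrophages (median -0.03), the adaptor Myd88 at 66.0 CPM in the Momordicine-I library and 109 CPM in the vehicle library (ratio 0.604, 0.507 to 0.720), and 0 with clusters. That is near the 9.01% of all genes that were lower in these cells. Of 17 priming receptors and NF-kappaB feedback genes, none passed in neutrophils (median -0.05), and 1 was lower in monocytes and macrophages (median -0.15), the feedback gene Tnip3 at 15.9 and 32.4 CPM.

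Among 23 further inflammasome genes measured in neutrophils, 1 was higher and 4 were lower (median 0.04), beside 13.3% higher and 4.42% lower of all genes (median 0.16). The guanylate-binding proteins Gbp2 and Gbp5, interferon-induced genes that act on caspase-11 and NLRP3 inflammasomes in mice, were lower, Gbp2 at 70.0 and 109.5 CPM (ratio 0.639, 0.590 to 0.692) and Gbp5 at 8.70 and 15.1 CPM (ratio 0.576, 0.460 to 0.720). Pycard, which encodes the adaptor ASC, was at 42.7 CPM in Momordicine-I and 29.6 CPM in vehicle neutrophils (ratio 1.45, 1.27 to 1.64), and the NLRP3 partner Nek7 at 30.9 and 21.2 CPM (ratio 1.46, 1.26 to 1.70). In monocytes and macrophages 4 of 22 were lower and none higher (median -0.18), beside 9.01% and 6.82% of all genes, and 2 were lower with clusters. Examples are Gbp2 at 38.4 and 101 CPM (ratio 0.379, 0.307 to 0.467) and Gbp5 at 14.1 and 31.5 CPM.

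Saa3 and other genes known to be induced by IL-1 were counted in the same way. In neutrophils 2 of 12 were higher and none lower (median -0.09), near the 13.3% of all genes that were higher. These were Saa3, an acute phase protein, at 229 CPM in Momordicine-I and 62.2 CPM in vehicle neutrophils (ratio 3.68, 3.41 to 3.98), and the chemokine Ccl2, at 111 and 53.5 CPM (ratio 2.08, 1.90 to 2.27). Among monocyte and macrophage sums 3 of 10 were lower and none higher (median -0.43), beside 9.01% and 6.82% of all genes. With clusters 1 was lower and 2 were higher, and without the highest cell of each gene 2 were higher. Saa3 was at 49.3 and 228 CPM (ratio 0.216, 0.182 to 0.256), Il6 at 7.05 and 41.4 CPM (ratio 0.170, 0.107 to 0.263) and Icam1 at 74.9 and 127 CPM (ratio 0.592, 0.502 to 0.697). In dendritic cells 4 of 9 were lower and none higher (median -0.40), among them the neutrophil-attracting chemokine Cxcl2, at 605 and 1587 CPM (ratio 0.381, 0.360 to 0.404). Cxcl2 is itself abundant in neutrophils, and S100a9 in these dendritic cells was at 0.369 times the vehicle level. The part of neutrophil RNA in their Cxcl2 was not tested.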

How the data were processed

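CD45-positive cells of 1 Momordicine-I and 1 vehicle library were profiled by 10x 3′ sequencing. The authors' deposited values are raw UMI counts per gene and barcode, made with Cell Ranger 6.0.2 on mm10 per the submitters' processing notes. The libraries held 4693 and 3642 barcodes with 41804810 and 33998491 UMIs, of which 322 and 274 barcodes were left out for over 10% mitochondrial UMIs and 26 and 25 for under 200 genes, some of them for both. Counts were summed per gated cell type and library with Python 3.11.15, numpy 2.4.6, scipy 1.17.1 and scanpy 1.11.5 (Scrublet, and Leiden clusters used as an alternative), and drawn with matplotlib 3.10.9. Ratios have exact conditional binomial intervals, levels exact Poisson intervals and shares Clopper-Pearson intervals. A difference counts as called at 1.5-fold where a gene had 20 UMIs or more. Calls were made for types that held, per library, 50 cells or more and 100000 UMIs or more. The ratio, its interval and the 1.5-fold limit were tested on simulated independent counts per library, without cells, gates or clusters.

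The text names all 10 genes and, from each further list, genes among the 4 whose interval lay farthest from 1. For patterns across types it names up to the 3 most alike genes that reached 50 CPM. The genes, lists and rules were chosen with earlier results of these data known. The gate limits were set after the marker distributions were seen, and the shares within gene pairs, the neutrophil subset ratios and the gamma-delta ratio of Il1r1 were added after the data were seen. Alternatives were scaling by the median ratio of all genes, removal of the 153 and 91 cells with the highest Scrublet scores, other cell filters, gates at 2 times or 0.5 of their limit, clusters, mean CPM of cells, thinning to 2000 UMIs, leaving out each gene's highest cell, and other UMI minimums. GRCm38 positions are from GENCODE and promoters from RefSeq.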

Additional observations from a re-analysis of the deposited data

Results flagged for a closer look

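The Il1b ratio lay on different sides of 1 in different cell types, at 1.18 in neutrophils and 1.18 in dendritic cells but 0.878 in monocytes and macrophages. The difference between the types was not tested, since each arm had 1 library. The phagocyte ratio ranged from 0.782 to 1.14 over 10 alternatives and was above 1 in 3 of them, with clusters (1.14), the mean CPM of cells (1.05) and thinned cells (1.06). A single cell held 3.83% of the phagocyte Il1b UMIs in the Momordicine-I library and 8.35% in the vehicle library.

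The Il1r2 ratio was 1.39 in dendritic cells, 0.968 in neutrophils and 0.767 in monocytes and macrophages, and this difference was not tested either. The dendritic ratio ranged from 1.16 to 1.56 and the neutrophil ratio from 0.866 to 0.978 over the 10 alternatives, while the phagocyte ratio ranged from 0.714 to 1.07. A single cell held 7.76% of the dendritic Il1r2 UMIs in the Momordicine-I library and 12.2% in the vehicle library.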

How the results depend on the processing

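Each arm was 1 pooled library, so no spread between tumours is known, and intervals cover counting error only. No paired analysis was possible because each group had a single library. Over 10 alternatives the Il1rn ratio stayed between 0.618 and 0.704 in neutrophils and between 0.501 and 0.711 in monocytes and macrophages, and Il1r1 in T cells between 3.01 and 4.91. Ratios past 1.5-fold that turned to the other side of 1 were Il1rn in dendritic cells (1.13 with gates at 0.5 of their limit, 1.67 thinned), Il1r2 in T cells (0.877 with clusters, against 1.58) and Il1b in B cells (0.677 with gates at 2 times their limit, 0.738 with clusters). Ratios nearer to 1 also crossed it, in monocytes and macrophages Il1a (to 1.06), Il1b (3 alternatives, to 1.14), Il1r2 (to 1.07), Casp1 (to 0.602) and Il18 (2, to 0.569), in dendritic cells Nlrp3 (5, to 0.775), Casp1 (2, to 0.369), Casp4 (to 0.853), Il18 (to 0.903) and Il1r1 (no Momordicine-I UMIs when thinned), and in regulatory T cells Il1r2 (5, to 0.745). Il1b in neutrophils was 1.06 scaled by the median of all genes, 1.19 with looser gates and 1.15 with clusters. Of the 10 genes in neutrophils, 0 were higher when thinned or with at least 50 UMIs, and 3 were lower when scaled or thinned and 2 by mean CPM. In monocytes and macrophages 1 was higher with clusters, 2 were lower without the highest Scrublet scores or with either other gate limit, and 4 by mean CPM or thinned. Among further lists in neutrophils, 1 other ligand was higher with no minimum and 1 lower when scaled (median -0.70) or with no minimum; 1 receptor was higher with clusters, thinned or no minimum and 1 lower when scaled or with clusters; 1 signalling gene was higher with clusters and 1 lower when thinned. Inflammasome genes higher numbered 2 with clusters or no minimum, 3 thinned and 0 with at least 50 UMIs, and 2 were lower when thinned. The priming median was -0.22 scaled, and 1 IL-1-induced gene was lower when scaled, thinned or with clusters. In monocytes and macrophages, 2 other ligands were lower with no minimum; 1 receptor was higher with clusters, 2 without the highest cells, and 0 lower when thinned. Signalling genes lower numbered 0 with clusters and 2 thinned (median -0.25). Inflammasome genes higher numbered 1 with clusters or without the highest cells and 2 with no minimum, and 2 were lower with clusters. Of priming genes 1 was higher and 4 lower when thinned. Of IL-1-induced genes 2 were higher with clusters or without the highest cells, 1 with no minimum, and 1 lower with clusters. The cause was not tested for any of these. Shares of all genes past 1.5-fold under each alternative are not given here, so these counts show only how the calls move with the processing.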
